A study of Mus musculus with 8 samples.

Results

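Soleus muscle, a slow postural muscle of the calf, was sequenced from 4 control mice (Dnm2 +/+) and 4 mice heterozygous for a K562E change in the membrane-remodelling GTPase dynamin 2 (Dnm2 +/K562E), all on a C57BL/6 background and 2 months old. The change was placed in the mouse gene by homologous recombination, so every cell type of the muscle, blood-derived cells included, carried it beside a residual LoxP site in an intron. No treatment is named for either group, and controls were littermates or animals of matched age. In the tissue sections of the same study, macrophages were followed by CD68 staining, and the comparison given here asks how the transcripts of such cells differed between the genotypes. The 10 genes described are Cd68, Lgals3, Gpnmb, Trem2, Tyrobp, Fcer1g, Spp1, Msr1, Ptprc and Lyz2, which belong to the uptake, digestion and signalling equipment of phagocytes and to the transcripts that define lipid-associated macrophages. They were chosen by symbol and found through their Ensembl identifiers. All 10 were present among the 22880 identifiers of each count file, and all 10 passed the filter on low counts that left 14001 genes for testing.

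Macrophages clear dead cells, debris and lipid by binding them through surface receptors, engulfing them and digesting them in lysosomes. Several of the receptors have no signalling tail of their own and depend on small adaptor proteins, Tyrobp and Fcer1g, whose ITAM motifs recruit the kinase Syk when the receptor is bound. In injured muscle, monocytes enter from the blood and mature into macrophages, and phagocytes that have taken up much lipid are recognised by a shared set of transcripts that includes Trem2, Gpnmb, Cd9, Lgals3 and Spp1.

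The depth was between 33407430 and 48832814 counts per mouse, and no pair of mice of the same genotype agreed within sampling noise. Expression is reported in normalized CPM, each count divided by the size of its library on a shared scale after correction by the TMM method of edgeR, whose factors lay at 0.915 to 0.959 for controls and 1.04 to 1.10 for Dnm2 +/K562E mice. The total level of Dnm2, which cannot check the genotype because the mutation is an exchange of an amino acid, was 59.2 to 68.8 CPM in controls and 70.3 to 76.1 CPM in Dnm2 +/K562E mice (log2 fold change, log2FC, 0.15, standard error 0.07, adjusted p = 0.0909). Genes of the contractile apparatus identified the tissue: all 11 listed genes of soleus fibres, among them the slow myosin Myh7 and the actin Acta1, summed to 65150 to 74460 CPM in controls and 46400 to 51300 CPM in Dnm2 +/K562E mice, with 1 gene called higher (Des) and 4 called lower (1 with scaling by library size alone). In bulk muscle, fewer cells of a type and less RNA per cell cannot be told apart.

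Of the 10 genes, 9 were higher and 1, the osteopontin gene Spp1, was lower in Dnm2 +/K562E soleus with an adjusted p under 0.05 and a log2FC of 0.58 or more in size (edgeR quasi-likelihood test, p-values adjusted after Benjamini and Hochberg across the 14001 genes). By the same rule, 12.9% of all tested genes were called higher and 7.85% lower, 1806 and 1099 genes, numbers that became 2865 and 564 with scaling by library size alone. The 9 higher genes had log2FC values between 1.04 and 2.46, and the median over all 10 was 1.51, against 0.01 over all tested genes. For each of the 10 genes, all 4 Dnm2 +/K562E mice lay on the same side of all 4 controls. Over all tested genes, 20.6% were free of overlap in the higher and 20.5% in the lower direction.

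**Figure D1:**
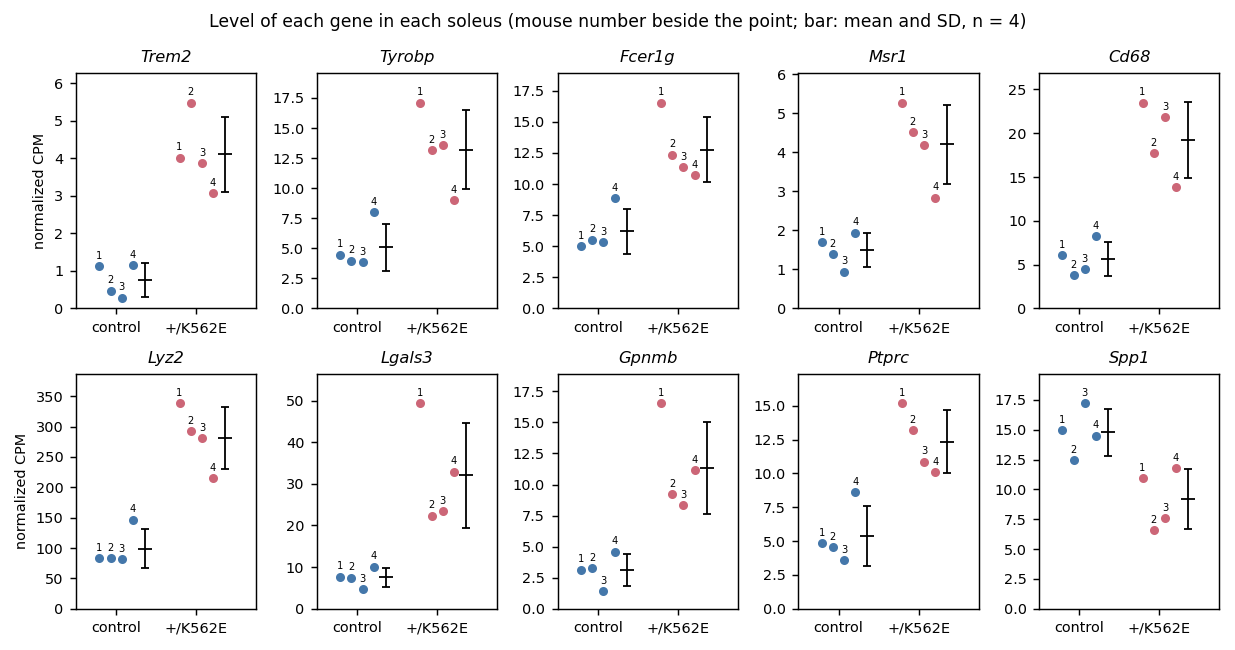
Level of each of the 10 genes in each soleus, in normalized CPM on a linear axis from 0, with the mouse number beside each point and the mean and SD over 4 mice as a bar. In the first 9 panels every Dnm2 +/K562E mouse lies above every control, with control 4 the highest control throughout, and in the Spp1 panel the order is the other way round.

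Trem2 encodes a receptor for lipids, lipoproteins and cell debris. Its level was 1.13, 0.475, 0.291 and 1.15 CPM in controls 1 to 4 and 4.02, 5.49, 3.86 and 3.08 CPM in Dnm2 +/K562E mice 1 to 4. It was the gene with the fewest reads in controls, 13 to 39 counts per mouse, and was raised in every Dnm2 +/K562E mouse, where 114 to 236 reads were counted. Its log2FC of 2.46 (standard error 0.38, adjusted p = 0.000413) was the highest point estimate of the 10, within 1 standard error of that of Lgals3. Tyrobp, the adaptor through which Trem2 signals, was at 4.47, 3.98, 3.85 and 8.01 CPM in controls and at 17.1, 13.1, 13.6 and 9.03 CPM in Dnm2 +/K562E mice. The genotypes came close to each other in control 4 and Dnm2 +/K562E mouse 4. The log2FC of Tyrobp was 1.38 (standard error 0.25, adjusted p = 0.00121).

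Fcer1g, the common chain that Fc receptors use to signal, was at 5.0, 5.52, 5.35 and 8.89 CPM in controls and at 16.5, 12.4, 11.4 and 10.7 CPM in Dnm2 +/K562E mice. Control 4 was again nearest to the Dnm2 +/K562E mice, and the log2FC, 1.04 (standard error 0.20, adjusted p = 0.00154), was the lowest of the 9 higher genes. Msr1, a class A scavenger receptor that binds modified lipoproteins, was at 1.70, 1.40, 0.941 and 1.94 CPM in controls and at 5.27, 4.51, 4.17 and 2.84 CPM in Dnm2 +/K562E mice. It was raised in all 4 Dnm2 +/K562E mice, least in mouse 4, with a log2FC of 1.50 (standard error 0.26, adjusted p = 0.000836).

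Cd68, a glycoprotein of the late endosome and lysosome and the antigen stained in the tissue sections, was at 6.11, 3.80, 4.46 and 8.24 CPM in controls and at 23.5, 17.7, 21.8 and 13.9 CPM in Dnm2 +/K562E mice. The lowest Dnm2 +/K562E mouse was 1.68 times the highest control, and the mean rose 3.40-fold, from 5.65 ± 1.98 to 19.2 ± 4.32 (SD, n = 4 each), with a log2FC of 1.77 (standard error 0.24, adjusted p = 0.000154). Lyz2, the lysozyme of macrophages and neutrophils, was the most abundant of the 10 genes per length in both genotypes. It was at 83.2, 83.4, 81.6 and 146.7 CPM in controls and at 338.8, 292.0, 281.1 and 215.0 CPM in Dnm2 +/K562E mice, so that 3 controls were nearly equal and control 4 stood above them. Its log2FC was 1.51 (standard error 0.20, adjusted p = 0.000144). Of the 31-base stretches of Lyz2 transcripts, 32.8% also occur in the neighbouring lysozyme gene Lyz1, so reads of the pair could not be fully told apart. Lyz1 itself was 7.03 ± 3.24 CPM in controls and 18.3 ± 4.63 CPM in Dnm2 +/K562E mice (SD, n = 4 each), with a log2FC of 1.39 (adjusted p = 0.00235).

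Lgals3, which encodes the glycan-binding galectin-3 that gathers at damaged lysosomes, was at 7.75, 7.48, 4.73 and 10.1 CPM in controls and at 49.4, 22.4, 23.4 and 32.9 CPM in Dnm2 +/K562E mice. Dnm2 +/K562E mouse 1 stood highest, and the lowest mouse of this genotype was 2.21 times the highest control. The log2FC of Lgals3 was 2.10 (standard error 0.28, adjusted p = 0.000155). Gpnmb, a transmembrane glycoprotein of lysosomes and melanosomes in cells loaded with lipid or pigment, was at 3.16, 3.27, 1.41 and 4.59 CPM in controls and at 16.6, 9.23, 8.35 and 11.1 CPM in Dnm2 +/K562E mice. Mouse 1 was the highest and mice 2 and 3 the lowest of the Dnm2 +/K562E group for Gpnmb as for Lgals3. The log2FC of Gpnmb was 1.88 (standard error 0.32, adjusted p = 0.000732).

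Ptprc encodes CD45, the surface phosphatase of all nucleated blood-derived cells. Its level was 4.83, 4.57, 3.58 and 8.60 CPM in controls and 15.2, 13.2, 10.9 and 10.1 CPM in Dnm2 +/K562E mice. No mouse overlapped, the gap between control 4 and Dnm2 +/K562E mouse 4 was small, and the log2FC was 1.20 (standard error 0.24, adjusted p = 0.00229). Spp1 encodes osteopontin, a secreted matrix protein that binds integrins and CD44 and is made by macrophages, bone cells and other cells. Its level was 14.99, 12.4, 17.2 and 14.5 CPM in controls and 10.9, 6.60, 7.61 and 11.8 CPM in Dnm2 +/K562E mice. Each Dnm2 +/K562E mouse was below each control, by a small margin for mouse 4, and the mean fell from 14.8 ± 1.97 to 9.23 ± 2.51 CPM (SD, n = 4 each), with a log2FC of -0.69 (standard error 0.18, adjusted p = 0.00986). The call of Spp1 was lost without Dnm2 +/K562E mouse 2 (log2FC -0.55, adjusted p = 0.0219) and with scaling by library size alone (-0.48, adjusted p = 0.0422), a scaling that moved the median of all genes to 0.22. In the transcript annotation, 14.3% of the 31-base stretches of Spp1 also occur in the gene model Gm42793, which was not counted.

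**Figure D2:**
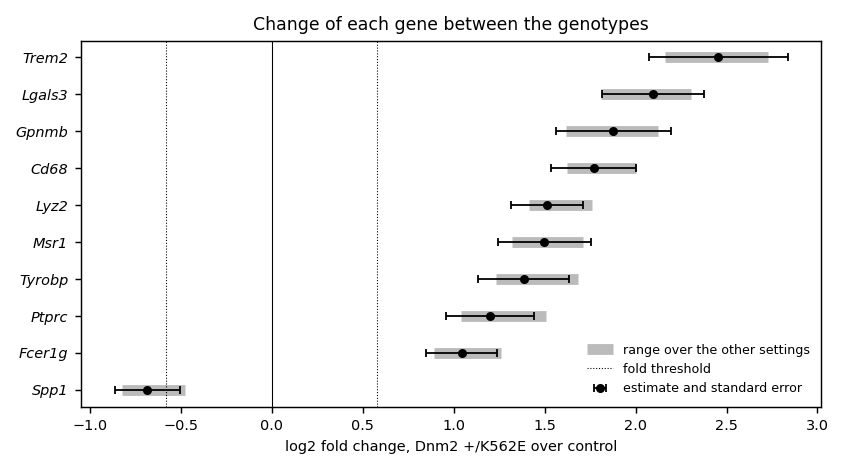
Log2FC (Dnm2 +/K562E over control) of each of the 10 genes with its standard error, over a grey bar that spans the estimates under 16 other settings of test, scaling, filter, blocking and mice left out. All 9 higher genes stay above the fold threshold of 0.58 at every setting, and the bar of Spp1 crosses the threshold on the negative side, from -0.82 to -0.48.

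The mice kept a similar order from gene to gene. Among the 9 higher genes, control 4 was the highest control for all 9 and control 3 the lowest for 7, and Dnm2 +/K562E mouse 1 was the highest of its genotype for 8, with mouse 2 the highest for Trem2. Dnm2 +/K562E mouse 4 was the lowest of its genotype for 7 of the 9, the exceptions being Lgals3, lowest in mouse 2, and Gpnmb, lowest in mouse 3. Spp1 did not share this order, since control 3 was its highest control and mouse 4 the highest of the Dnm2 +/K562E group. Without control 4, the log2FC values were 2.00 for Cd68, 1.68 for Tyrobp, 1.26 for Fcer1g, 1.51 for Ptprc and 1.76 for Lyz2, and no call changed.

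Levels of different genes were compared after division by exon length (RPKM, computed here with the merged exons of each gene, which understates genes with many rarely used exons). In controls the order was Lyz2 (75.0 ± 24.3 RPKM), Spp1 (8.98 ± 1.20), Tyrobp (7.61 ± 2.96), Fcer1g (7.09 ± 2.07), Cd68 (4.50 ± 1.58) and Lgals3 (4.05 ± 1.19), followed by Gpnmb (0.477 ± 0.200), Ptprc (0.295 ± 0.120), Msr1 (0.236 ± 0.0680) and Trem2 (0.154 ± 0.0897; SD, n = 4 each). Lyz2 stood above the rest in every mouse. From Spp1 to Lgals3 the ranges of neighbours in this order overlapped, and so did those from Gpnmb to Trem2, with a gap between Lgals3 (2.54 RPKM or more) and Gpnmb (0.705 RPKM or less). In Dnm2 +/K562E mice Lyz2 (214 ± 38.8 RPKM) was followed by Tyrobp (19.8 ± 4.96), Lgals3 (17.2 ± 6.75), Cd68 (15.3 ± 3.43) and Fcer1g (14.6 ± 2.99), whose ranges overlapped. Spp1 came next at 5.60 ± 1.52 RPKM, in place 6 of the order against place 2 in controls, ahead of Gpnmb (1.74 ± 0.566). Trem2 (0.831 ± 0.203), Ptprc (0.674 ± 0.127) and Msr1 (0.662 ± 0.160) were the lowest, with overlapping ranges.

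To see whether the genes moved in proportion to leukocyte transcripts as a whole, the level of each was divided by that of Ptprc in the same mouse, as a description without a test. All 4 Dnm2 +/K562E ratios were above all 4 control ratios for 3 of the other 9 genes, Trem2, Lgals3 and Cd68, a pattern seen in 0.950% of all tested genes. Because Ptprc itself rose, division by it lowered the ratio of most genes, so this share is no yardstick for genes of leukocytes. The ratio of Trem2 to Ptprc was 0.235, 0.104, 0.0813 and 0.134 in controls and 0.264, 0.416, 0.355 and 0.306 in Dnm2 +/K562E mice, a mean log2 difference of 1.37. The ratio of Lgals3 to Ptprc was 1.18 to 1.64 in controls and 1.70 to 3.27 in Dnm2 +/K562E mice, with a mean log2 difference of 0.81, and that of Cd68 was 0.831 to 1.27 against 1.34 to 2.00, with a mean log2 difference of 0.55. The ranges of both genotypes overlapped for Gpnmb, Msr1, Lyz2, Tyrobp and Fcer1g, whose mean log2 differences were 0.68, 0.25, 0.29, 0.16 and -0.19. Spp1 fell relative to Ptprc, from 1.69 to 4.81 in controls to 0.50 to 1.17 in Dnm2 +/K562E mice, which is no mark of Spp1 because 63.0% of all tested genes were separated in this direction. The result depended on the reference: relative to Laptm5, a lysosomal gene of leukocytes, Lyz2 joined the 3 genes, and relative to Csf1r, the receptor for the macrophage growth factor, only Tyrobp and Lyz2 were separated upwards.

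**Figure D3:**
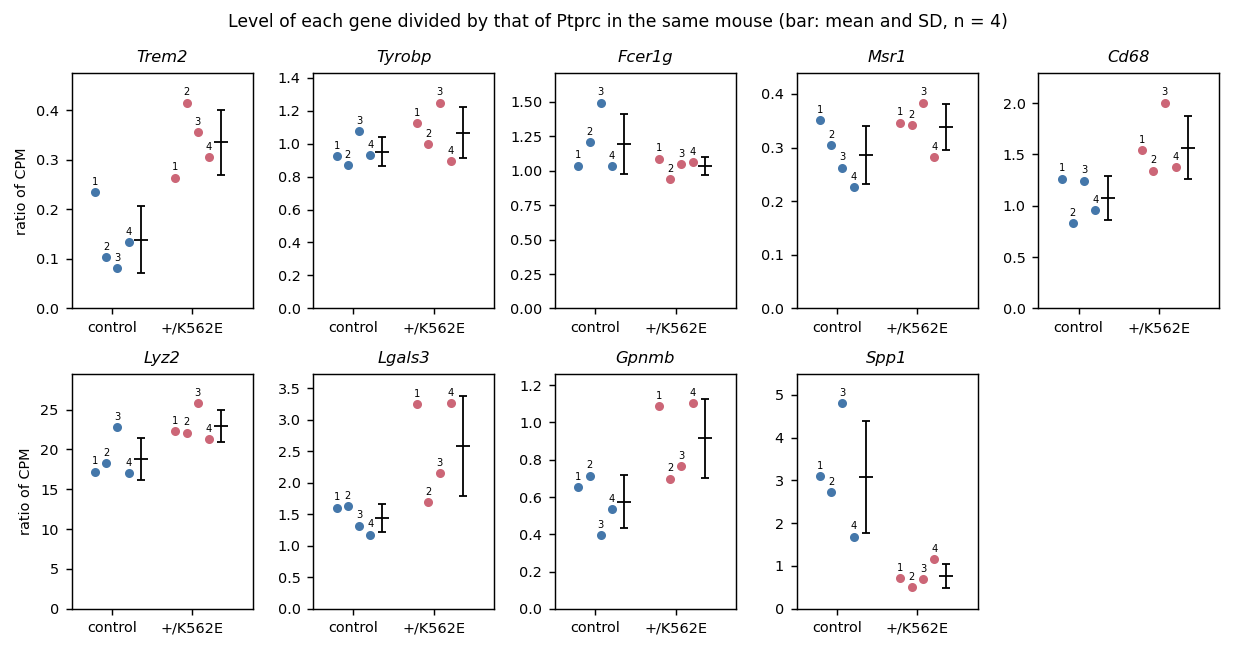
Level of 9 genes divided by the level of Ptprc in the same mouse, on linear axes from 0, with the mouse number beside each point and the mean and SD over 4 mice as a bar. The genotypes are separated upwards for Trem2, Cd68 and Lgals3 and downwards for Spp1, and the ranges overlap for Tyrobp, Fcer1g, Msr1, Lyz2 and Gpnmb.

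Because 9 of the genes moved together, their promoters were read from RefSeq (GRCm38.p6, 300 bases around a transcript start, most of them upstream), where 8 of the 10 genes had an entry, Ptprc and Spp1 with 2 promoters each, which makes 10 promoters. Macrophage genes are known to be bound by the ETS factor PU.1, which the gene Spi1 encodes, and by AP-1, so the core GAGGAA and the motif TGANTCA were searched on both strands. GAGGAA occurred in 4 of these 10 promoters (of Cd68, Trem2, Spp1 and Ptprc) and in 28.3% of all 32851 promoters, and TGANTCA in 3 of the 10 (of Cd68, Trem2 and Gpnmb) and in 7.81% of all promoters. The letters CATGTG and CACGTG, bound by factors of lysosomal and pigment genes, occurred in none of the 10 and in 14.2% and 7.15% of all promoters. A match describes the letters and not a bound site. The promoters of Cd68 (chr11:69666121-69666420, minus strand), Trem2 (chr17:48346151-48346450, plus strand) and Gpnmb (chr6:49036268-49036567, plus strand) are shown as those with a TGANTCA match among the higher genes, beside that of Spp1 (chr5:104434861-104435160, plus strand), the gene that fell. Capitals mark the matches of both motifs on either strand, which do not overlap each other.
Cd68: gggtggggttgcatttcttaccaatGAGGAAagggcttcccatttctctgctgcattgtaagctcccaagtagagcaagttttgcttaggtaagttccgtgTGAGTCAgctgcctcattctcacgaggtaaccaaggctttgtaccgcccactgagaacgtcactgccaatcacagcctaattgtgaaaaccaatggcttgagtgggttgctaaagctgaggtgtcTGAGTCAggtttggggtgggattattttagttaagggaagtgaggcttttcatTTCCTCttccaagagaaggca
Trem2: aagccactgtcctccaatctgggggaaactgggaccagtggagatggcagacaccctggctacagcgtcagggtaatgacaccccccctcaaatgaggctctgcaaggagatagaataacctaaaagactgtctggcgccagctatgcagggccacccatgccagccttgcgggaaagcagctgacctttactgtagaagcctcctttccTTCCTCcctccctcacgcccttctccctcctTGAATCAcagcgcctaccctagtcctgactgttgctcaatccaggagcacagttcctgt
Gpnmb: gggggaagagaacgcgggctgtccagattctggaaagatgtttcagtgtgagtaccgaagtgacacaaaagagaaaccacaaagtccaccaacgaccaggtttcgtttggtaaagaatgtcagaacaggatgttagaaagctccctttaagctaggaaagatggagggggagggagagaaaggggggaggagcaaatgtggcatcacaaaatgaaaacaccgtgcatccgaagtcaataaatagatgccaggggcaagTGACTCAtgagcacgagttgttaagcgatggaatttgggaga
Spp1: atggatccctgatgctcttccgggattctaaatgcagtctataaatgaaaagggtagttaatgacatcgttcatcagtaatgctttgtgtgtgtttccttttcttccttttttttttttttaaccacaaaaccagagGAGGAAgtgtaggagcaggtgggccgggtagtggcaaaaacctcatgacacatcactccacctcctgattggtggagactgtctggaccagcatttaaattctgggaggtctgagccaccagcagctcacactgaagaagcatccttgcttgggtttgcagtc
Cd68 carries 4 matches and Trem2 carries 2, while Gpnmb carries 1 AP-1 match and Spp1 carries 1 ETS match.

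The genes lie on separate chromosomes except Fcer1g and Ptprc. In GRCm38, Cd68 spans chromosome 11, 69664213 to 69666153, Trem2 chromosome 17, 48346401 to 48354147, Lgals3 chromosome 14, 47367751 to 47386160, Gpnmb chromosome 6, 49036546 to 49070929, and Spp1 chromosome 5, 104435118 to 104441050. No exon of the 10 genes overlaps an exon of another counted gene.

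The wider pathways around the 10 genes were followed in 10 lists of 112 further genes, of which 99 were tested, 46 were called higher and 5 lower. By the same rule, 12.9% of all tested genes were called higher and 7.85% lower, shares that stand beside the counts of each list below. The phagocyte oxidase, which makes superoxide in the phagosome, was higher throughout, with 6 of 6 genes called and a median log2FC of 1.04. Its membrane subunit Cybb was 5.77 ± 2.73 CPM in controls and 19.7 ± 4.21 CPM in Dnm2 +/K562E mice (log2FC 1.78, adjusted p = 0.000628), and Ncf1 (1.68) and Cyba (0.95) rose with it.

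Downstream of Tyrobp and Fcer1g, 8 of 13 tested genes of ITAM signalling were higher and none was lower, with a median log2FC of 0.97, while 5 of the 18 listed genes had too few reads. Clec5a, another receptor that uses Tyrobp, had a log2FC of 1.81 (adjusted p = 0.000424). The exchange factor Vav1 (1.81) and the phosphatase Ptpn6 (1.28) were called too. The kinases Syk and Lyn, which many cell types express, had log2FC values of 0.35 (adjusted p = 0.101) and 0.05 (adjusted p = 0.58) and were not called. The tested Fc receptor genes were receptors of immunoglobulin G that signal through Fcer1g or alone, and the neonatal receptor Fcgrt. Of these 5 genes, 4 were called higher, Fcgrt among them, with a median of 1.05. Fcgr3 (log2FC 1.05, adjusted p = 0.000859) and the inhibitory Fcgr2b (1.09, adjusted p = 0.00608) had the smallest p-values after Fcgrt. The calls of Fcgr1 (1.29, adjusted p = 0.0265) and of the neonatal receptor Fcgrt (0.59, adjusted p = 0.000647) did not hold in every set of mice, and the number called fell to 2 without control 2, control 3 or Dnm2 +/K562E mouse 2.

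Beside Msr1, 4 of 12 tested scavenger and uptake receptors were higher and none was lower, with a median log2FC of 0.34. Axl and Tyro3, receptors that bind dying cells through bridging proteins, rose by 1.07 (adjusted p = 1.39e-05) and 1.67 (adjusted p = 0.000242), and the collectin Colec12 rose by 1.15. The related receptor Mertk did not rise (-0.12, adjusted p = 0.297). The bridging proteins of the list, Gas6 (-0.14, adjusted p = 0.155) and Mfge8 (-0.36, adjusted p = 0.000853), were not called either. For Mfge8, every Dnm2 +/K562E mouse lay below every control. Olr1, a receptor for oxidised lipoprotein, was called at 2.58 (adjusted p = 0.017) on 0 to 24 reads per mouse. The fatty acid transporter Cd36, abundant in muscle and vessels, went from 1137 ± 158.0 to 835.6 ± 42.4 CPM (SD, n = 4 each), with a log2FC of -0.44 (adjusted p = 0.0031), short of the fold threshold. Of the lysosomal genes that accompany Cd68, 7 of 13 tested were higher and none was lower, with a median of 0.65. The tetraspanin Cd9, which marks lipid-associated macrophages among many other cells, rose by 0.85, and the proteases Ctsl, Ctsz and Ctsk rose by 0.68, 0.81 and 1.06.

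Of the genes of lipid handling, 1 of 14 tested, the cholesterol esterifying enzyme Soat1 (log2FC 0.78, adjusted p = 0.00126), was higher, 3 were lower, and the median was 0.02. Npc2 (0.53, adjusted p = 0.00144), Abca1 (0.44, adjusted p = 0.00179) and Lipa (0.26, adjusted p = 0.00818) rose without overlap but short of the fold threshold. Apoe, which encodes an apolipoprotein that Trem2 binds, was 143.5 ± 53.7 CPM in controls and 188.2 ± 19.2 CPM in Dnm2 +/K562E mice (log2FC 0.39, adjusted p = 0.145). It was called only without control 4 (0.66, adjusted p = 0.0019) or with scaling by library size alone (0.60, adjusted p = 0.0443). The fatty acid carrier Fabp5 (23.4 ± 1.26 and 23.4 ± 2.79 CPM) and the lipid droplet coat Plin2 (51.1 ± 9.88 and 49.4 ± 4.38 CPM), which are also listed for lipid-associated macrophages, had log2FC values of -0.0018 and -0.05, which turned positive with scaling by library size alone (0.21 and 0.17). The genes that fell were lipoprotein lipase Lpl, from 2035 ± 169 to 792.9 ± 69.5 CPM (log2FC -1.36, adjusted p = 1.29e-06), the mitochondrial thiolase Acat1 (-0.90) and the sterol receptor Nr1h3 (-0.68), whose call was lost with library size alone (-0.47). Muscle fibres are rich in Lpl and Acat1. The number called higher was 3 without control 4 and 4 with library size alone or with no fold threshold.

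**Figure D4:**
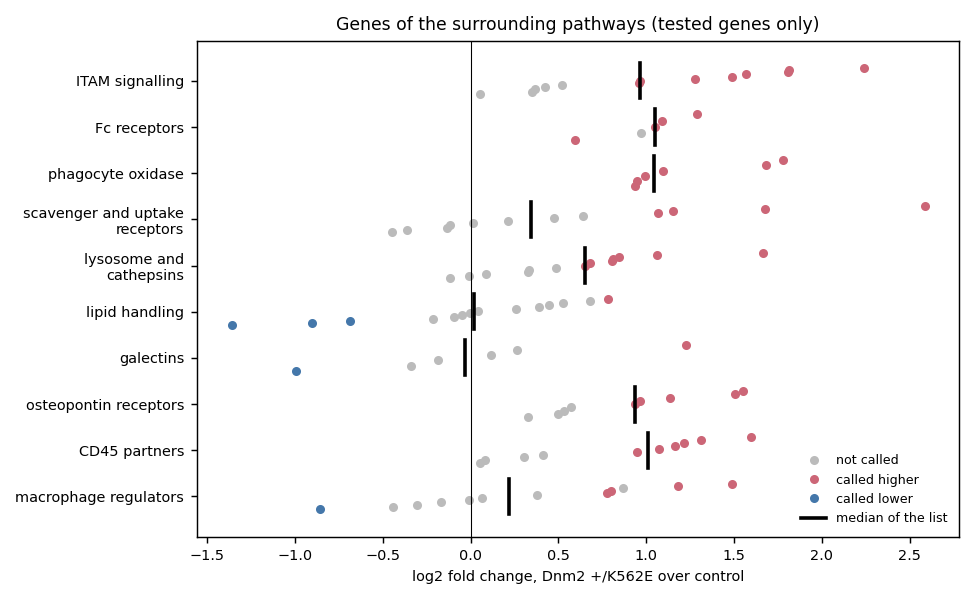
Log2FC (Dnm2 +/K562E over control) of each tested gene in the 10 lists, 1 point per gene, coloured by its call, with a black line at the median of each list. Medians of the phagocyte oxidase, Fc receptors, CD45 partners, ITAM signalling and osteopontin receptors lie near 1, and those of lipid handling and galectins near 0.

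Of 9 tested receptor genes of osteopontin, 5 were higher (8 with scaling by library size alone) and none was lower, with a median log2FC of 0.94. Cd44 rose from 17.2 ± 2.49 to 50.2 ± 13.0 CPM (log2FC 1.55, adjusted p = 4.14e-05), and the integrin subunits Itga8, Itga5 and Itga9 rose by 1.50, 0.94 and 1.14. These receptors also bind other matrix proteins and are made by many cell types. In the galectin list, whose 6 tested genes were 5 galectins other than Lgals3 and the galectin-3 binding protein Lgals3bp, Lgals1, which fibroblasts and muscle cells also make, was higher, from 195.8 ± 16.1 to 457.5 ± 51.3 CPM (log2FC 1.22, adjusted p = 2.99e-06), and the median of the list was -0.03. Lgals4 was called lower (-0.99, adjusted p = 0.0368), but control 1 at 16.6 CPM stood above the other controls, at 4.59 to 7.22 CPM, and without it the log2FC was -0.47 (adjusted p = 0.0591). Its call was also lost without Dnm2 +/K562E mouse 1, 2 or 4 (adjusted p = 0.0931, 0.0681 and 0.0824) and with scaling by library size alone (adjusted p = 0.081).

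Beside Ptprc, 6 of 10 tested genes of CD45 substrates and leukocyte-wide proteins were higher and none was lower, with a median of 1.01. The actin regulator Coro1a (log2FC 1.31), Laptm5 (1.22) and the surface proteins Cd52 (1.60) and Cd37 (0.95) had the smallest p-values. None of the kinases in this list was called. Csk (0.30, adjusted p = 0.0106) and Fyn (0.41, adjusted p = 0.00478) fell short of the fold threshold. Lyn was at 0.05, and Lck had too few reads to be tested. Of the regulators of macrophages, 4 of 12 tested genes were higher and 1 was lower, with a median of 0.22. Csf1, the growth factor of macrophages, rose by 0.78 and its receptor Csf1r by 1.18 (adjusted p = 0.00129), and Spi1 rose by 1.49 (adjusted p = 0.00163).

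Most markers of macrophages and monocytes moved with the 9 higher genes. Of 15 tested markers, 11 were higher and none was lower, with a median log2FC of 1.16. Their summed level was 159.5 to 306.1 CPM in controls and 323.4 to 540.4 CPM in Dnm2 +/K562E mice. Cx3cr1 (1.86), Ccr2 (1.73), both chemokine receptors of monocytes and macrophages, and the pore-forming Mpeg1 (1.67) rose most among them. The markers not called were Aif1 (0.67, adjusted p = 0.231), Cd163 (0.64, adjusted p = 0.0808), Siglec1 (0.37, adjusted p = 0.436) and Ly6c2 (-0.23, adjusted p = 0.312). Their ranges overlapped between the genotypes. Because several of the 10 genes are also made by other cells, markers of those cells were followed beside them, and their part in the result was not tested. Mast cells also use Fcer1g, and none of 5 tested mast cell markers was called, with sums of 11.4 to 42.4 CPM in controls and 6.97 to 29.0 CPM in Dnm2 +/K562E mice. Neutrophils also make Lyz2, and of their 8 markers the 1 tested was not called, although 1 marker was called when any of 6 of the mice was left out, with sums of 0.269 to 1.22 CPM in controls and 0.604 to 3.59 CPM in Dnm2 +/K562E mice, while their defining genes Ly6g, Mpo, Elane and Camp had 3 or fewer reads in every mouse. Natural killer cells also use Tyrobp, and their markers summed to 0.268 to 0.501 CPM in controls and 0.487 to 1.05 CPM in Dnm2 +/K562E mice, with 1 of 1 tested gene called higher. That gene, Klrd1, had 2 to 18 reads per mouse and was not tested when at least 10 counts were required in every mouse.

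Bone cells make Spp1 in quantity, and the bone genes Ibsp and Bglap had 3 or fewer reads in every mouse. In the same list of 9 bone and osteoclast genes, 4 were tested, Ctsk was higher, and Calcr, the calcitonin receptor of osteoclasts and muscle stem cells, fell from 2.14 ± 0.381 to 0.192 ± 0.139 CPM (log2FC -3.47, adjusted p = 8.96e-05). Calcr had 3 to 106 reads per mouse, and it was not tested when at least 10 counts were required in every mouse. Melanocytes make Gpnmb, and of 5 melanocyte markers only Dct was tested, which was lower. The list sums were 2.26 to 4.63 CPM in controls and 0.706 to 1.63 CPM in Dnm2 +/K562E mice. Dct made up most of these sums (means of 3.08 and 0.934 CPM), and the other listed genes had too few reads to be tested, so the fall is that of 1 gene. Of 2 tested T cell markers 1 was higher, and the 7 listed genes summed to 0.403 to 1.59 CPM in controls and 1.84 to 3.99 CPM in Dnm2 +/K562E mice. The higher gene, Cd2, had 3 to 66 reads per mouse and was not tested when at least 10 counts were required in every mouse. Neither of 2 tested B cell markers was called, and sums of 6.67 to 20.5 CPM in controls and 8.14 to 16.9 CPM in Dnm2 +/K562E mice overlapped. Among dendritic cell markers, 2 of 6 tested genes were higher, a number that ran from 1 to 5 when single mice were left out, with 5 without control 4. The integrin Itgax, which lipid-associated macrophages also carry, was at 1.04, 0.713, 0.493 and 0.972 CPM in controls and at 6.65, 6.35, 3.94 and 3.97 CPM in Dnm2 +/K562E mice. It was raised in every Dnm2 +/K562E mouse, and its log2FC of 2.71 (adjusted p = 2.9e-05) exceeded the estimates of all 10 genes. The whole list overlapped between the genotypes, at 13.8 to 22.8 CPM in controls and 19.2 to 26.5 CPM in Dnm2 +/K562E mice. Its most abundant gene, Zbtb46, went down from 15.3 ± 2.86 to 10.8 ± 2.25 CPM (log2FC -0.51, adjusted p = 0.0314), short of the fold threshold. The estimates of the other tested genes were positive.

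**Figure D5:**
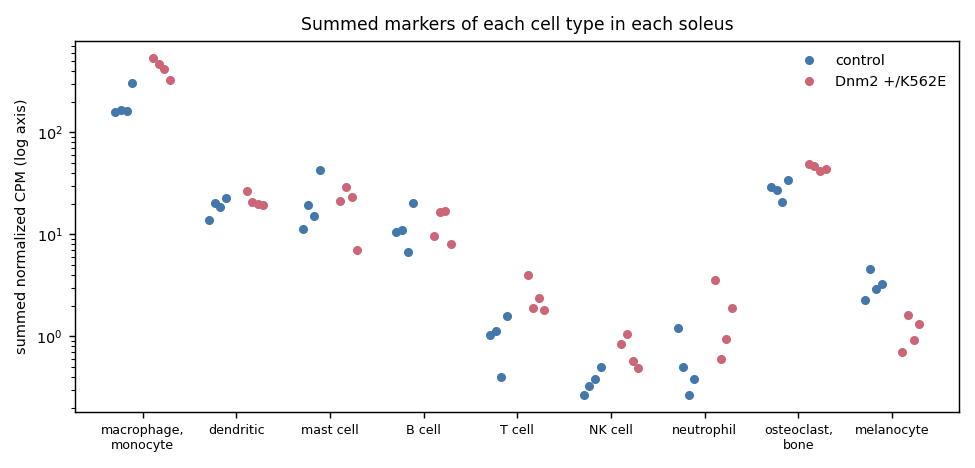
Summed normalized CPM (log axis) of the marker genes of each cell type in each soleus, 1 point per mouse in the order of the mouse numbers. Macrophage and monocyte markers are the most abundant list in both genotypes and do not overlap. T cell and bone lists are also separated upwards, the bone list largely through Ctsk. The melanocyte list is separated downwards through its most abundant gene, Dct. Dendritic, mast cell, B cell, natural killer cell and neutrophil lists overlap.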

How the data were processed

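RNA-seq counts of soleus from 4 control and 4 Dnm2 +/K562E mice were used, grouped by the genotype in the labels. The authors trimmed reads with Trimmomatic 0.33, aligned them with STAR 2.5.1b to GRCm38.p5, counted them per gene with featureCounts and deposited raw counts per mouse. Their counting assigned a read to every gene that it overlapped and kept multi-mapping reads only at the primary alignment. The paper describes poly A-enriched libraries, the labels a total RNA kit, and whether strand was used is not given in the sources used here. From these counts, edgeR 4.0.16 in R 4.3.3 (filterByExpr with minimum count 10 and total 15, TMM factors, quasi-likelihood F-test, Benjamini-Hochberg adjustment over 14001 genes) gave the tests. Calls needed an adjusted p under 0.05 and a log2FC of 0.58 or more in size. Of the 22880 identifiers, 22647 matched GENCODE M21, which gave symbols, positions and exon lengths. The 10 genes and all lists were chosen with earlier results of these data known.

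Genes named were Dnm2, the 10 genes, and from each pathway list up to 4 called genes of smallest p and those called against their list. Apoe, Fabp5, Plin2, Syk, Lyn, Cd36, Itgax, Zbtb46, Calcr, Dct, Des, Cx3cr1, Ccr2 and Mpeg1 were named after their values were seen. So were Mertk, Gas6, Mfge8, Csk, Fyn, Lck, Aif1, Cd163, Siglec1, Ly6c2, Npc2, Abca1, Lipa, Klrd1 and Cd2. Some genes that this rule picks are not reported here. Other settings were DESeq2 1.42.0, edgeR's exact test, scaling by library size alone or by median-ratio factors, no filter, at least 10 counts in every mouse, blocks by mouse number, no fold threshold, other reference genes and leaving out each mouse. Same-numbered mice are different animals, and p-values set the difference between the genotypes against the spread between these mice.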

Additional observations from a re-analysis of the deposited data

Results flagged for a closer look

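Dixon's criterion sets the gap of a mouse to the next mouse of its genotype against the whole range. By it, a mouse stood apart from the other 3 in 12 of 120 combinations of a gene and a genotype, where chance flags about 1 in 20. Not every gene named here was among these combinations. Among the 10 genes all such cases came from control 4, which was high for Tyrobp (8.01 CPM, others 3.85 to 4.47), Fcer1g (8.89 CPM, others 5.0 to 5.52) and Lyz2 (146.7 CPM, others 81.6 to 83.4). Control 4 was also high for Csf1 (27.8 CPM) and Csf1r (49.6 CPM). Control 3 was low for Dnm2 (59.2 CPM, others 68.5 to 68.8), and control 1 was high for Plin2 (65.9 CPM). Dnm2 +/K562E mouse 1 was high for Fcgr3 (24.2 CPM) and Mpeg1 (39.1 CPM) and low for Cd36 (772.4 CPM). Dnm2 +/K562E mouse 4 was low for Ptpn6 (4.43 CPM) and Axl (186.8 CPM).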

How the results depend on the processing

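Of 160 values of the 10 genes under other settings, 158 kept their direction and their side of the thresholds and 2 lost the call, both of Spp1: -0.48 with library size alone and -0.55 without Dnm2 +/K562E mouse 2, each leaving 0 genes lower. With single mice left out, the number lower ran from 0 to 1 and Spp1 from -0.82 to -0.55. Over all tested genes, library size alone gave 2865 higher and 564 lower calls against 1806 and 1099. The number of pathway genes called lower was 3 with library size alone, 9 with no fold threshold and 4 to 5 with single mice left out. Not-called Fabp5 turned to 0.21 with library size alone, 0.0083 with at least 10 counts in every mouse, and ran from -0.073 to 0.067 without single mice; Plin2 turned to 0.17 with library size alone and ran from -0.10 to 0.090 without single mice. As a replicate block, the mouse numbers are no pairing: same-numbered mice had correlations of -0.21 to 0.01 by title and -0.17 to 0.18 by description. With either block 9 of the 10 genes were higher and 1 lower; by title, Lgals4 lost its call (-0.83, adjusted p = 0.102). Counting error limits Trem2, at 13 to 39 reads in controls, and Olr1, Fcgr1, Calcr, Klrd1 and Cd2 more than the other called genes named here.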
